A study of Mus musculus with 20 samples.

Results

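The regulator genes of the integrated stress response were followed through 20 arrays of MIN6, a beta cell line from the mouse pancreas that secretes insulin. They are 10 genes, namely the transcription factor genes Atf4, Ddit3, Cebpb, Atf5 and Nupr1 and the effector genes Trib3, Chac1, Sesn2, Ddit4 and Ppp1r15a. Every probe set (a group of short probes that reports 1 transcript) annotated to 1 of these symbols and to no other gene was taken, which gave 16 of the 22690 probe sets on the array. Atf4 has 3 of them, Cebpb, Nupr1, Trib3 and Sesn2 have 2 each, and the remaining 5 genes have 1 each. Values are log2 expression levels, so a difference of 1 is a doubling, and the level of a probe set cannot be set against that of another probe set.

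Cells were grown at 22.7 or 5.5 mM glucose. Each level had 10 arrays, 1 without treatment and 9 with human amylin at 1, 10 or 20 µM for 2, 12 or 24 h. Amylin is a peptide hormone that beta cells release together with insulin; the human form aggregates into amyloid, and the mouse form that MIN6 cells make themselves does not. All groups share the same line, which was derived from a beta cell tumour of a mouse carrying a viral oncogene under the insulin promoter, and no group differs in genotype. Each condition was arrayed once, so the error of the glucose difference is its spread over the 10 matched pairs of arrays, and the number of arrays limits the precision. The labels do not say whether arrays came from separate cultures.

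In the integrated stress response, kinases that sense unfolded protein in the endoplasmic reticulum (ER), amino acid shortage, haem shortage or double-stranded RNA phosphorylate the translation factor eIF2. Most translation then falls, while the ATF4 mRNA, which carries short upstream reading frames, is translated better. ATF4 is a transcription factor that turns on amino acid synthesis and transport genes and also Ddit3, the gene of CHOP, another transcription factor that is linked to cell death when stress lasts. Ppp1r15a encodes GADD34, which brings a phosphatase to eIF2 and so closes the loop. Beta cells make large amounts of proinsulin in the ER and depend on the eIF2 kinase PERK.

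ATF4 with a C/EBP partner binds composite sites, and promoters of members were therefore searched for the site written TGATGNAA and for its variant TTGCATCA, whose reverse complement is a form of TGATGNAA, on both strands. The windows run from 250 bases before to 50 bases after the annotated start and come from RefSeq on the build GRCm38.p6, where all 10 genes were found, Atf5 with 2 windows. TGATGNAA was present in windows of 3 of the 10 genes and in 3.97% of all 32851 windows, and TTGCATCA in windows of 2 genes and in 0.895% of all. The promoters shown are those of the 3 genes with the smallest p for glucose, each gene taken by its probe set of smallest p. Sesn2 is among them through 1425139_at only, as 1451599_at did not pass (limma adjusted p = 0.884). That of Chac1 is shown because it holds a match (it was chosen after the search). All are written in the direction of transcription, with matches in capitals. The Sesn2 window (chr4:132510407-132510706, minus strand) holds no match. The Nupr1 window (chr7:126625421-126625720, minus strand) holds 1 that begins 110 bases before the start, the Trib3 window (chr2:152344011-152344310, minus strand) 1 that begins 15 bases after it, and the Chac1 window (chr2:119350992-119351291, plus strand) 1 that begins 193 bases before it.
Sesn2: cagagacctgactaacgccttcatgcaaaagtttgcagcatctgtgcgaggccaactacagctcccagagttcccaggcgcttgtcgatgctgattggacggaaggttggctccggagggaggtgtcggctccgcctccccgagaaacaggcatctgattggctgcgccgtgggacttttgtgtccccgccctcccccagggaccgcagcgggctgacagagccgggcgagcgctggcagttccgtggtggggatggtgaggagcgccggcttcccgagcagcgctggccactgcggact
Nupr1: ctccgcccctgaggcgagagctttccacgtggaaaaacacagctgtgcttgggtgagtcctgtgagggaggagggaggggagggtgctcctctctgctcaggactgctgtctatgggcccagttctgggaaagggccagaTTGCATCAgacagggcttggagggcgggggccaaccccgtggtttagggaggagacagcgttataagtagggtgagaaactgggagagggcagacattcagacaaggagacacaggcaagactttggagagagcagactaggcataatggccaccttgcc
Trib3: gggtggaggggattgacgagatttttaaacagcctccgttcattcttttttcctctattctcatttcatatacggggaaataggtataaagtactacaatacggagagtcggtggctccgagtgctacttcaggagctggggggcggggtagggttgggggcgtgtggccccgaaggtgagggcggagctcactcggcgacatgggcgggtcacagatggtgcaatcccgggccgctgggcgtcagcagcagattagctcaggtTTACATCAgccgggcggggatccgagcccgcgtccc
Chac1: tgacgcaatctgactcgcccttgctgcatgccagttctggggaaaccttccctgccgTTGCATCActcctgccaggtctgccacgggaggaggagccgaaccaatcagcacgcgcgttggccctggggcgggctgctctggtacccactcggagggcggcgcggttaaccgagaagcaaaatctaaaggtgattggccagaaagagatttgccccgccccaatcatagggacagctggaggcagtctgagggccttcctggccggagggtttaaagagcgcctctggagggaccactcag
A match describes letters in these windows and was not tested as a binding site.

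The arrays carried the markers of beta cells: all 12 markers on the list lay above the expression filter used below. Of 5 immune and endothelial markers none did, while 4 of 10 fibroblast, 2 of 3 acinar, 2 of 4 duct and 2 of 4 other islet hormone markers did. The mean level of the beta cell markers ranged from 11.15 to 11.59 at 22.7 mM and from 11.04 to 11.52 at 5.5 mM. That of the other hormone markers ranged from 7.37 to 7.86 and from 7.54 to 8.26. Single markers stood far above the rest of their list. Over all arrays Gcg was at 11.23 and the duct marker Krt7 at 10.56, beside medians of 7.01 for the other hormone list and 6.86 for the duct list. The median of the beta cell list was 10.95. All 4 other hormone markers were lower at 22.7 mM on average, by the most in Sst (−0.64) and Ppy (−0.43), and all 4 duct markers were higher, by the most in Krt18 (0.35) and Krt7 (0.27). Duct marker means ranged from 7.47 to 7.80 at 22.7 mM and from 7.10 to 7.76 at 5.5 mM. These markers thus differed between glucose levels alongside the members, and their part in the results was not tested. Arrays differed in quality with glucose. The gap between the actin control probe sets at the 3′ and at the 5′ end of the transcript (3′ minus 5′ signal), which grows as RNA is degraded or incompletely copied, was 1.83 ± 0.43 (SD, n = 10) at 22.7 mM and 1.22 ± 0.24 (SD, n = 10) at 5.5 mM, higher at 22.7 mM in 10 of 10 pairs (exact 2-sided permutation p = 0.00195, the smallest possible). Beyond a fit with this signal as a covariate, given below, its part in the results was not tested. A pair of arrays that have no scanner description (1 µM for 12 h at 22.7 mM, and 10 µM for 24 h at 5.5 mM) stood apart, with mean correlations to the other arrays of 0.960 to 0.970 against 0.985 to 0.990 for the rest.

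The pair of 1 µM amylin for 2 h went against the other 9 pairs in these genes. Of the 14 member probe sets that passed the filter, 13 were higher at 22.7 mM in that pair, by a median of 0.79 (range −0.27 to 1.90), whereas 117 of the 126 differences in the other 9 pairs were negative. In the same pair the actin 3′ minus 5′ signal kept its usual direction (0.83 higher at 22.7 mM). Of the 597 non-member probe sets with a single sign in the other 9 pairs, 347 (58.1%) had that sign here. Each other pair, taken in turn with its own such probe sets (371 to 850), had 40.8% to 93.5%. The lowest was the pair of 10 µM for 24 h with its array that stood apart. The number with that sign was 347 each time, those of a single sign in all 10 pairs. The shares thus differ only through the size of each set, and for the other pairs the sets depend on the pair of 1 µM for 2 h. The labels were kept as given, and the glucose result is given below with and without that pair.

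**Figure D1:**
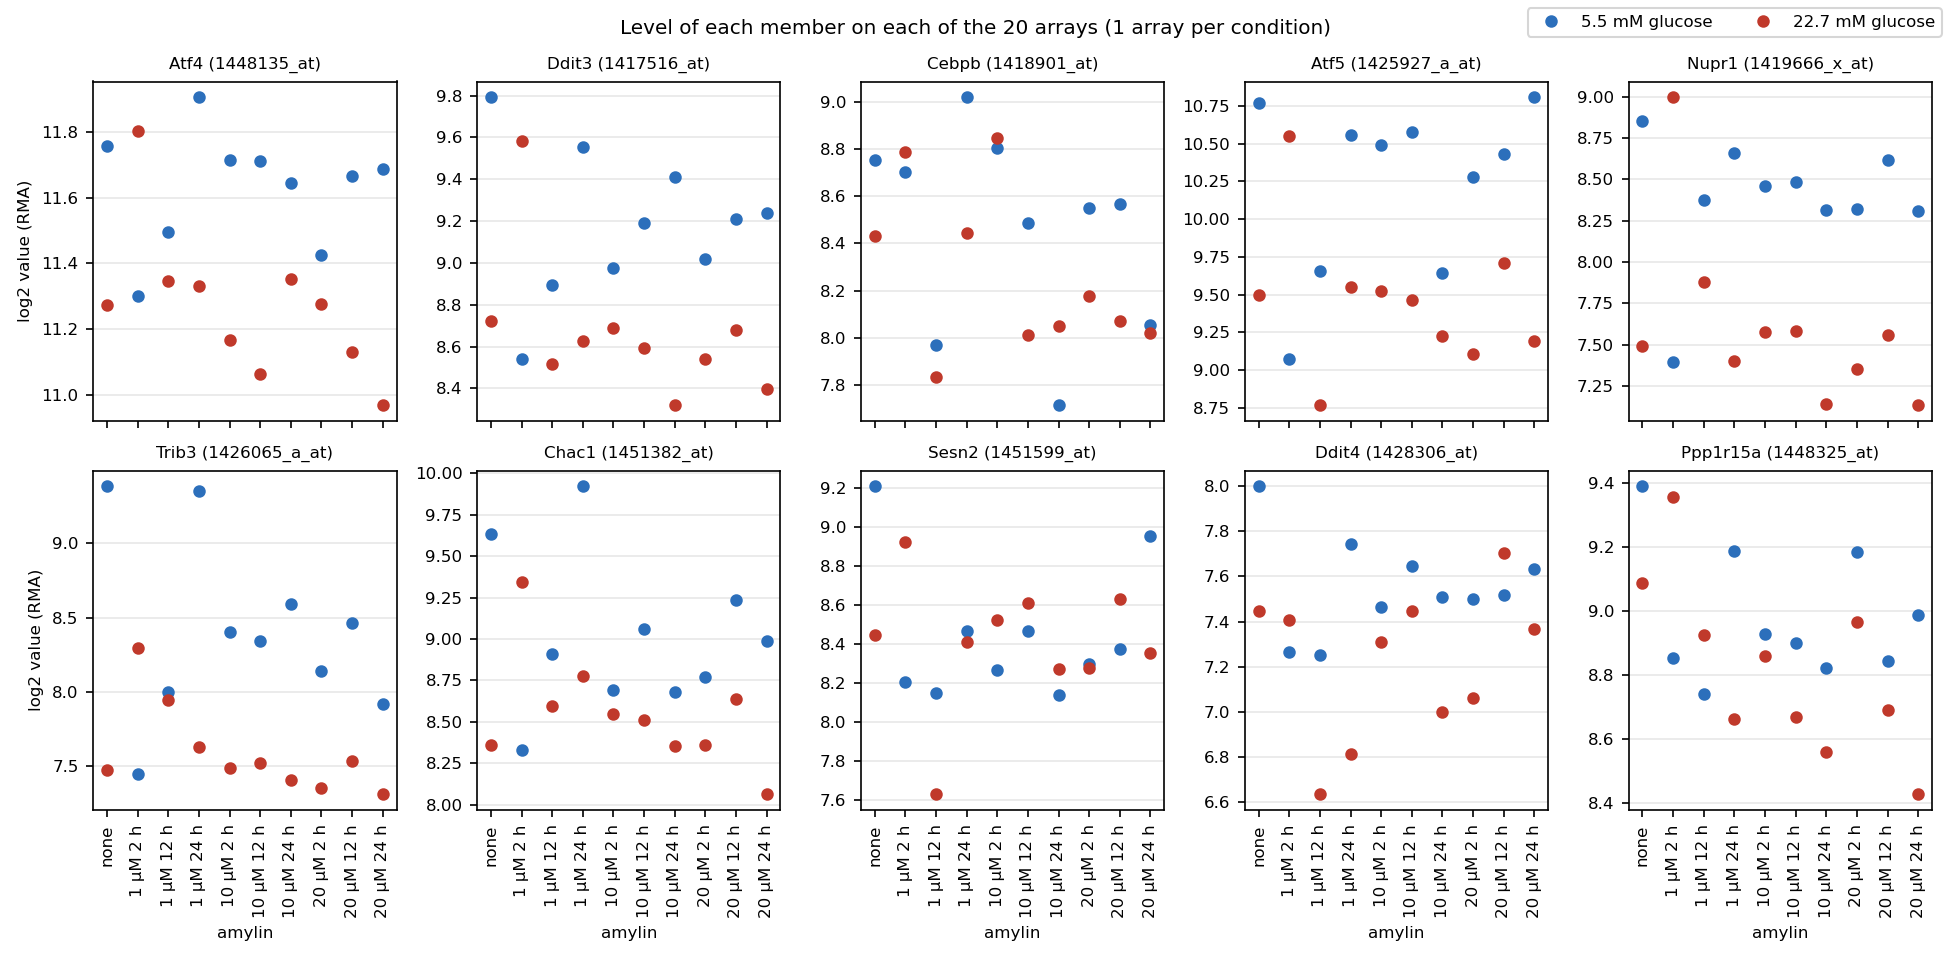
Level (log2, RMA) of the probe set of highest mean of each of the 10 genes on the 20 arrays, by amylin dose and time, at 5.5 mM (blue) and 22.7 mM glucose (red); each point is 1 array. Blue points lie above red ones in most conditions for most genes, and the order turns over at 1 µM for 2 h.

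The comparison of glucose levels asked how the medium in which the cells grew bore on these genes. All 14 member probe sets that passed the filter were lower at 22.7 than at 5.5 mM, and 8 of them, from Atf4, Atf5, Nupr1, Trib3 and Sesn2, fell (adjusted p under 0.05 by limma over 12228 probe sets). None rose. Over all probe sets tested 4.69% were called lower. The members were chosen with earlier results of these data known, so their counts beside that share are descriptions. The members' median difference was −0.44 on the log2 scale, beside 0.02 for all probe sets. In the 9 pairs other than 1 µM for 2 h, 9 of 14 member probe sets were lower at 22.7 mM in every pair and 12 of 14 in at least 8. Among all 12228 probe sets, 597 non-members had a single sign in those 9 pairs, in either direction. The share of all probe sets lower in at least 8 was not taken. Without that pair the median was −0.56 and 10 of 14 were called lower, beside 527 of all 12228 probe sets in the same fit. The pair was left out after these genes were seen to go the other way in it, so larger differences and smaller errors without it follow from that choice, and values without it are descriptions. Atf4 1438992_x_at, which did not go the other way, was at −0.34 without it. In bulk RNA a lower level per cell and fewer cells expressing a gene cannot be told apart.

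Atf4 encodes the transcription factor that heads the response. Its probe set 1448135_at ranged from 10.97 to 11.80 with a median of 11.27 at 22.7 mM, and from 11.30 to 11.91 with a median of 11.68 at 5.5 mM. Both groups overlapped only through the pair of 1 µM for 2 h: 11.80 was the array at 22.7 mM of that pair and 11.30 its partner at 5.5 mM. That pair was singled out because these genes went the other way in it, so this is a description. The level fell by 0.36 (SE 0.10, limma adjusted p = 0.039). The probe set 1438992_x_at fell by 0.33 (SE 0.09, limma adjusted p = 0.0428), with values of 8.20 to 8.99 at 22.7 mM and 7.92 to 9.20 at 5.5 mM. Its lowest value was on the 5.5 mM array of 10 µM for 24 h that stood apart. The probe set 1439258_at (5.37 to 6.42 over all arrays) lay below the filter, and with no filter it differed by 0.09 (SE 0.13, limma adjusted p = 0.834), against the direction of the other members. These 3 probe sets followed each other poorly over the 20 arrays, with r of 0.35, 0.11 and −0.67.

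Ddit3, the CHOP gene, ranged from 8.32 to 9.58 with a median of 8.61 at 22.7 mM and from 8.54 to 9.79 with a median of 9.20 at 5.5 mM. Without the pair of 1 µM for 2 h the highest array at 22.7 mM was at 8.72. The lowest at 5.5 mM was then at 8.89. This gap between the groups follows in part from leaving out a pair for its opposite order, and is a description. How many of all probe sets show such a gap was not counted. The difference over all 10 pairs was −0.52 (SE 0.16) and did not pass (limma adjusted p = 0.0600). Without that pair Ddit3 differed by −0.69. Cebpb, the gene of a C/EBP factor that pairs with ATF4 and CHOP, had its probe set 1418901_at at 7.83 to 8.84 (median 8.12) at 22.7 mM and at 7.71 to 9.02 (median 8.56) at 5.5 mM. These groups overlapped over most of their range, and the difference of −0.20 (SE 0.09) did not pass (limma adjusted p = 0.207). The probe set 1427844_a_at of Cebpb was below the filter, with medians of 6.02 and 6.34, and with no filter it differed by −0.38 (SE 0.12, limma adjusted p = 0.0784).

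Atf5, the gene of a factor related to ATF4 that acts in mitochondrial stress and in beta cell survival, ranged from 8.77 to 10.55 (median 9.48) at 22.7 mM and from 9.07 to 10.81 (median 10.46) at 5.5 mM. It fell by 0.77 (SE 0.21, limma adjusted p = 0.0395). The pair of 1 µM for 2 h differed by 1.48 and the other 9 by −1.61 to −0.42. Nupr1 encodes a small stress-induced chromatin protein and had the largest difference of the members. On its probe set 1419665_a_at the 22.7 mM arrays lay between 6.58 and 8.90 (median 7.20) and the 5.5 mM arrays between 7.0 and 9.30 (median 8.63). The level fell by 1.16 (SE 0.28, limma adjusted p = 0.0225). As descriptions, without the pair of 1 µM for 2 h the 22.7 mM arrays reached 7.60 and the 5.5 mM arrays began at 7.89. The difference without that pair was −1.50. The other Nupr1 probe set, 1419666_x_at, followed 1419665_a_at over the arrays (r = 0.96) and fell by 0.77 (SE 0.22, limma adjusted p = 0.0422).

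Trib3 encodes a pseudokinase that binds ATF4, CHOP and the kinase AKT. Its probe set 1426065_a_at lay between 7.31 and 8.30 (median 7.50) at 22.7 mM and between 7.44 and 9.39 (median 8.37) at 5.5 mM. It fell by 0.81 (SE 0.20, limma adjusted p = 0.0235), and 1456225_x_at fell by 0.64 (SE 0.18, limma adjusted p = 0.0405; r = 0.92 between them). In the untreated pair the first was at 7.47 at 22.7 mM and 9.39 at 5.5 mM, its widest gap. Chac1, the gene of an enzyme that degrades glutathione, ranged from 8.06 to 9.34 (median 8.53) and from 8.33 to 9.92 (median 8.95). Its difference of −0.47 (SE 0.17) did not pass (limma adjusted p = 0.0995), and without the pair of 1 µM for 2 h it was −0.63.

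Sesn2 encodes sestrin 2, a leucine sensor that restrains mTORC1. Its probe sets disagreed. On 1425139_at the level lay between 6.73 and 7.28 (median 6.97) at 22.7 mM and between 6.98 and 7.93 (median 7.36) at 5.5 mM and fell by 0.42 (SE 0.10, limma adjusted p = 0.0210). On 1451599_at it lay between 7.63 and 8.93 and between 8.14 and 9.21 and differed by −0.05 (SE 0.12, limma adjusted p = 0.884), negative in 5 of 10 pairs. Ddit4 encodes REDD1, another inhibitor of mTORC1; it ranged from 6.64 to 7.70 (median 7.34) and from 7.25 to 8.0 (median 7.51). Its difference of −0.33 (SE 0.10) did not pass (limma adjusted p = 0.0516). Ppp1r15a, the GADD34 gene, ranged from 8.43 to 9.36 (median 8.78) and from 8.74 to 9.39 (median 8.91), with a difference of −0.16 (SE 0.09, limma adjusted p = 0.322). The groups of Sesn2, Ddit4 and Ppp1r15a overlapped with or without the pair of 1 µM for 2 h.

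**Figure D2:**
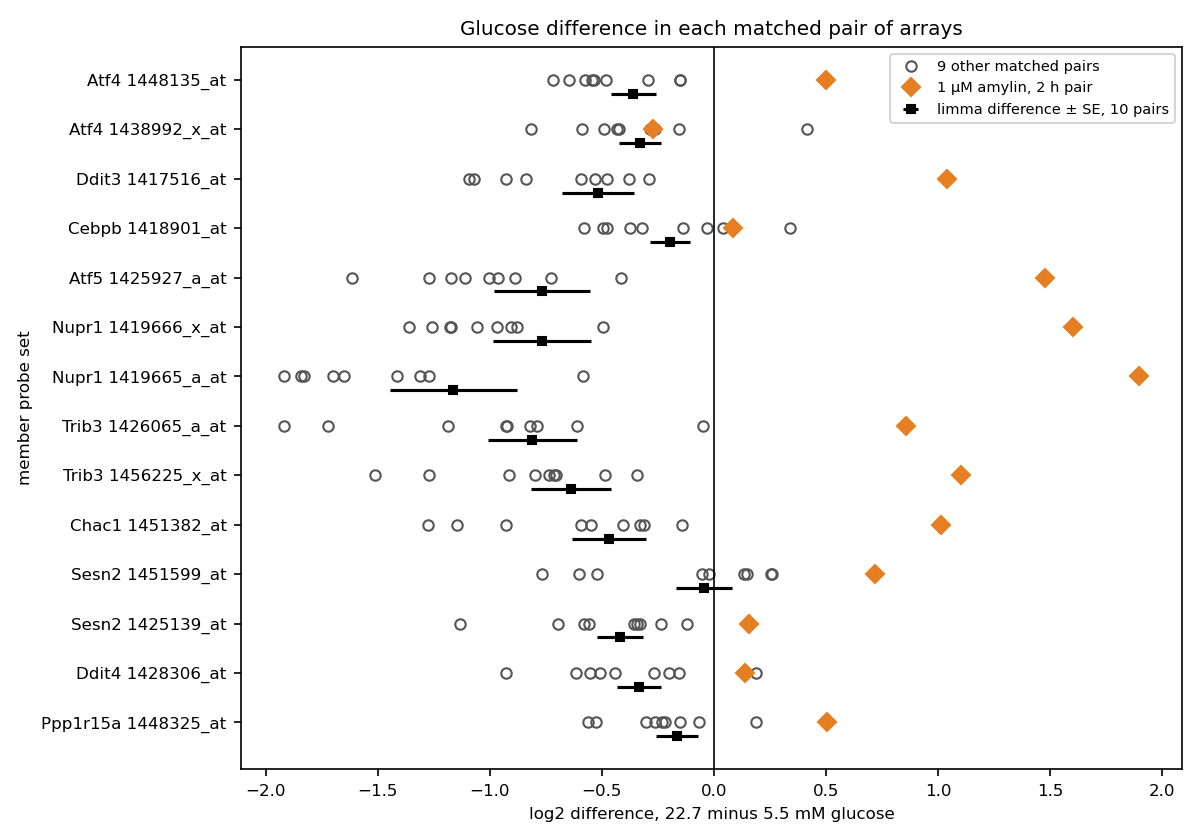
Log2 difference between 22.7 and 5.5 mM glucose for each of the 14 tested member probe sets in the 10 matched pairs (grey circles, with the pair of 1 µM for 2 h as orange diamonds), and the limma difference with its SE (black). In 13 of 14 probe sets the orange diamond is above 0, while 117 of 126 circles are below 0.

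The number called rested on the setting, and the direction of Sesn2 1451599_at did too (0.01 with scan day as a block, and −0.13 to 0.035 with 1 array left out). With that actin signal as a covariate, the members' median was −0.46 with 14 of 14 negative, but the SE grew (Nupr1 1419665_a_at −1.35, SE 0.51) and 0 members passed, as did 0 of all 12228 probe sets (1213 had an unadjusted p under 0.05). Leaving out 1 array, which takes its pair out of this comparison, left 0 to 10 members called, with 13 or 14 of 14 negative; it was 0 without either array of 1 µM for 24 h or of 10 µM for 2 h. It was 1 without either untreated array or either array of 10 µM for 12 h, and 2 without either array of 20 µM at any time. With arrays centred on their medians 3 passed, beside 387 of all 12228 probe sets called lower. With scan day as a block, in 17 arrays, 10 passed, beside 1002 of all called lower. The reported fit called 573 of all lower. With 1 array left out, 411 to 1524 of all were called in either direction.

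**Figure D3:**
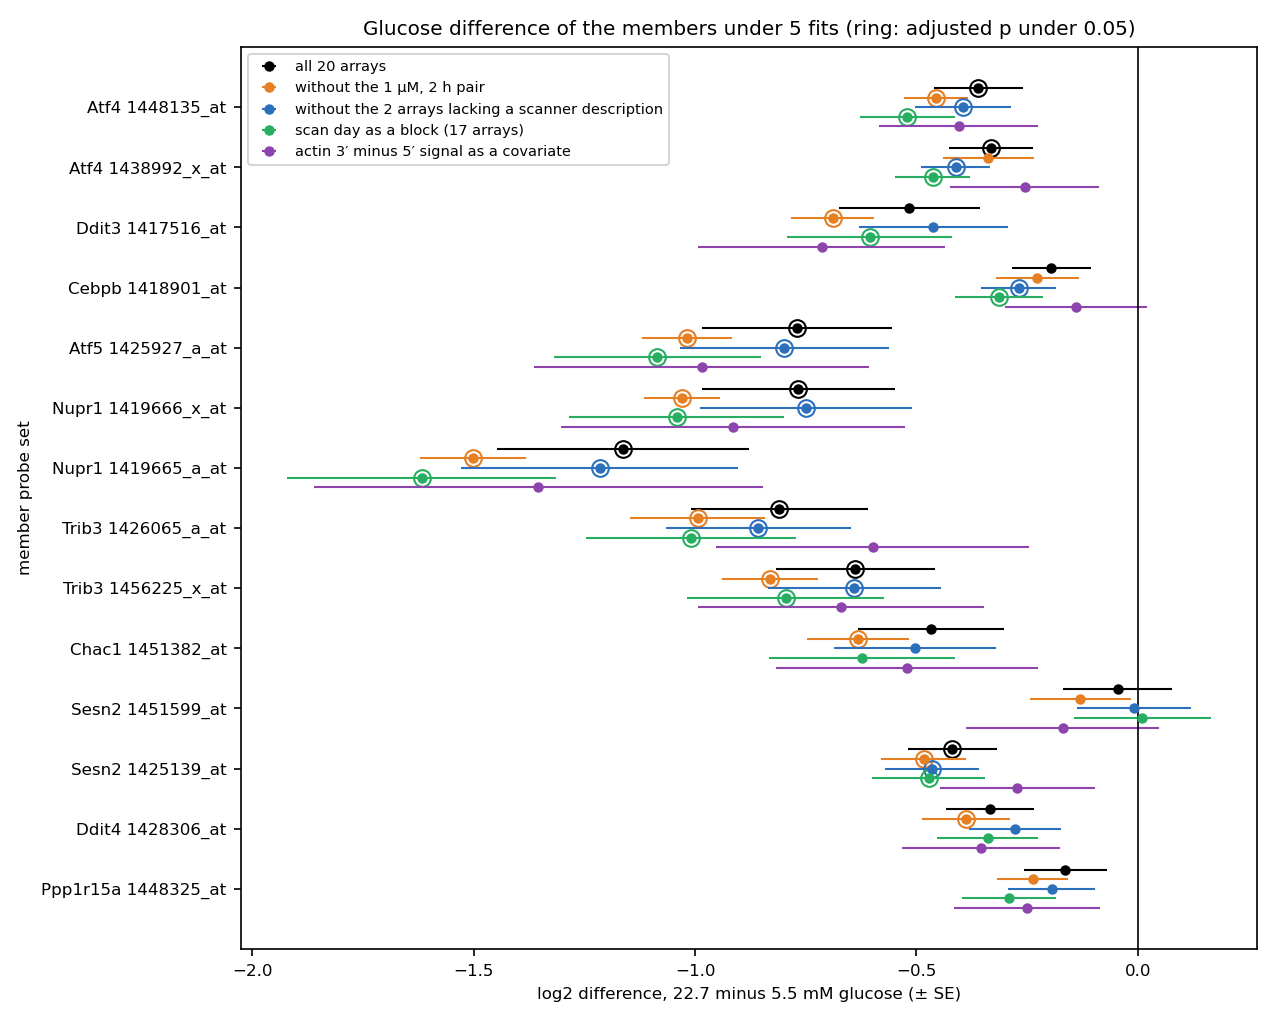
Glucose difference (22.7 minus 5.5 mM, log2, with SE) of the 14 tested member probe sets under 5 fits; a ring marks adjusted p under 0.05. Points keep to the left of 0 in every fit except Sesn2 1451599_at with scan day as a block (0.01), and the covariate fit (purple) has no rings. The pair left out in the orange fit was chosen after these genes were seen to go the other way in it.

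Arrays had been scanned on 4 days. Within day 2 (1 array at 22.7 and 3 at 5.5 mM) all 10 genes were lower at 22.7 mM, with a median difference of −0.54. Within day 3 (4 and 3 arrays) 8 of 10 were lower, with a median of −0.32, and within day 4 (4 and 2 arrays) 9 of 10 were, with a median of −0.82. These arrays were not matched on amylin condition. The matched pair of 20 µM for 2 h was the only pair known to be scanned within a single day, and there all 14 member probe sets were lower at 22.7 mM, with a median of −0.42. The untreated pair and the pair of 1 µM for 2 h were both spread over days 3 and 2 in the same way and had medians of −1.10 and 0.79.

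The members moved together across arrays. Taking the probe set of highest mean per gene, all 45 pairwise correlations over the 20 arrays were positive, from 0.27 to 0.92 with a median of 0.66. Within 22.7 mM 43 of 45 were positive (median 0.63) and within 5.5 mM all 45 were (median 0.67). These arrays share the normalization and the 10 conditions, and the values are descriptions. Each set of arrays includes 1 or both arrays of 1 µM for 2 h, and the correlations over all 20 include the glucose difference. Pairs of other probe sets were not correlated for comparison. Ddit3 followed the mean of the other members most closely (r = 0.95), then Chac1, Atf5 and Nupr1 (0.89, 0.89 and 0.88). Cebpb and Sesn2 followed it least (0.51 and 0.53).

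The mean deviation of the 10 members from their own means puts each array on a scale. At 5.5 mM it was 0.75 in untreated cells. At 1 µM it was −0.30, −0.07 and 0.63 at 2, 12 and 24 h, at 10 µM it was 0.21, 0.28 and 0.04, and at 20 µM it was 0.14, 0.28 and 0.25. At 22.7 mM it was −0.19 in untreated cells. At 1 µM it was 0.50, −0.40 and −0.24, at 10 µM −0.16, −0.26 and −0.44, and at 20 µM −0.36, −0.17 and −0.49. So the array of 1 µM for 2 h is the only positive array at 22.7 mM, and it and the array of 1 µM for 12 h are the only negative ones at 5.5 mM. Over the 20 arrays this deviation had r = −0.25 with the actin 3′ minus 5′ signal, and within glucose levels r was 0.41 at 22.7 mM and 0.17 at 5.5 mM (10 arrays each). These are descriptions over arrays of different conditions, each including 1 or both arrays of 1 µM for 2 h. The part of this signal in the glucose difference was not tested by them.

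**Figure D4:**
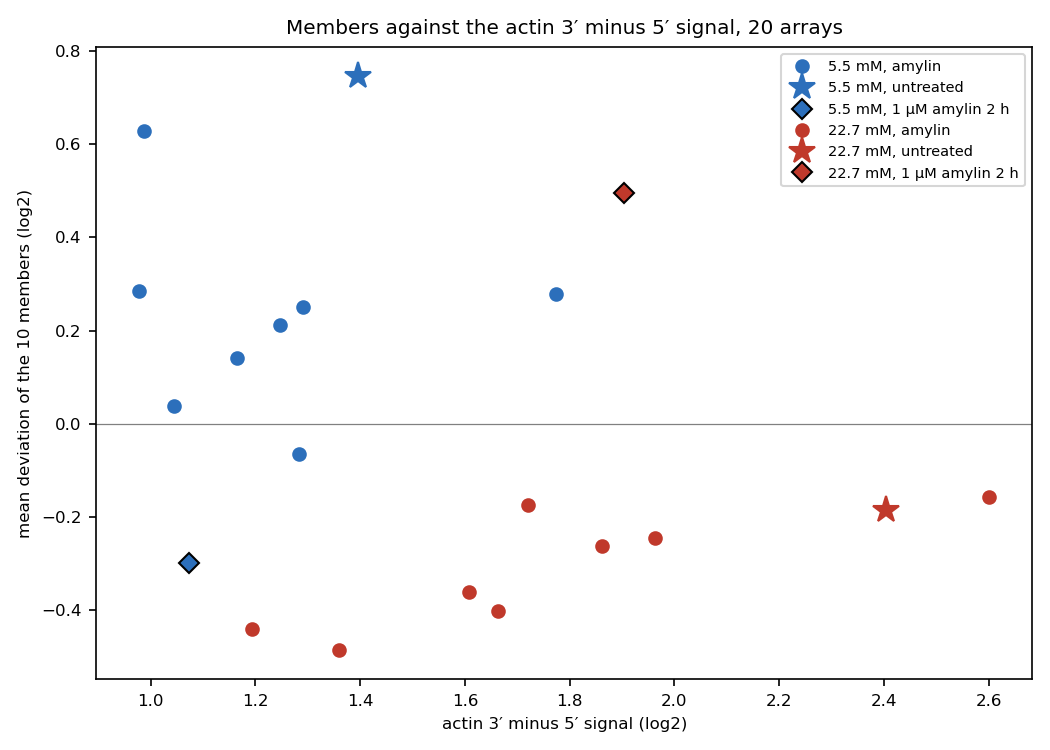
Mean deviation of the 10 members (log2) against the actin 3′ minus 5′ signal (log2) on the 20 arrays, by glucose level; stars are untreated arrays and diamonds the pair of 1 µM for 2 h. The red points reach further right and, except for the diamond at 0.50, lie below 0.

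Genes whose pattern was most like the members' mean, over the 20 arrays, were Slc7a3, a transporter of cationic amino acids (r = 0.95), Psph, the last enzyme of serine synthesis (0.93), Eif4ebp1, an inhibitor of cap-dependent translation (0.92), and Phgdh, the first enzyme of serine synthesis (0.91). Cyb5r1 (0.89), Angptl6 (0.88), Mthfd2, a mitochondrial folate enzyme (0.88), and Shmt2, which makes glycine from serine in mitochondria (0.88), came next. Without the 2 arrays that stood apart these r were 0.89 to 0.96.

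Other genes around the pathway were counted from 3 lists, each gene by its probe set of highest mean. Among other ATF4 and CHOP target genes, mainly of amino acid synthesis, transport and tRNA charging, 6 of 34 tested fell at 22.7 mM and none rose, 31 were negative, and the median was −0.18. Those of smallest p were Cth, of cysteine synthesis (−0.74, limma adjusted p = 0.00777), Psph (−0.67, limma adjusted p = 0.0117), Psat1, also of serine synthesis (−0.58, limma adjusted p = 0.0146), and Slc7a3 (−0.78, limma adjusted p = 0.0265). The eIF2 list held eIF2 kinases, subunits of eIF2, eIF2B and the phosphatase, and regulators of these. Of its 14 genes tested 1 fell, a count near the share over all probe sets, 8 were negative, and the median was −0.03. The gene that fell was Dnajc3 (−0.59, limma adjusted p = 0.00342), so no kinase or subunit gene was called. Dnajc3 encodes an ER-resident co-chaperone known as an inhibitor of eIF2 kinases. In the ATF6 and XBP1 branch of the unfolded protein response, the arm that induces ER chaperones, 7 of 19 fell and none rose, 17 were negative, and the median was −0.30. Pdia3 (−0.71), Pdia6 (−0.40) and Dnajb11 (−0.38), all of protein folding in the ER, and Manf (−0.35), a protein induced by ER stress, had the smallest p there (limma adjusted p of 0.00762 to 0.0137). Among all 12228 probe sets 4.69% were called lower and 44.2% were negative, with a median of 0.02. These shares count probe sets rather than genes. The lists were chosen with earlier results of these data known, so their counts beside these shares are descriptions.

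In the pair of 1 µM for 2 h these lists differed. Of the other ATF4 and CHOP targets 5 of 34 were lower at 22.7 mM, with a median of 0.37, whereas in the remaining pairs 17 to 32 of 34 were lower, with medians of −0.53 to 0.03. Slc7a3 was higher at 22.7 mM by 1.29 in that pair, Psph by 0.82, Cth by 0.62 and Psat1 by 0.29. In the ATF6 and XBP1 branch 11 of 19 were lower in that pair, with a median of −0.07, and in the remaining pairs 6 to 18 of 19 were, with medians of −0.48 to 0.16. The pair of 10 µM for 24 h, which holds an array that stood apart, had the fewest lower in this branch. Pdia3 (−0.51) and Manf (−0.26) kept their direction, and Pdia6 and Dnajb11 were close to 0 (0.003 and −0.05). The eIF2 list had a median of −0.20 there and of −0.16 to 0.14 in the remaining pairs. These differences between lists were not tested.

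**Figure D5:**
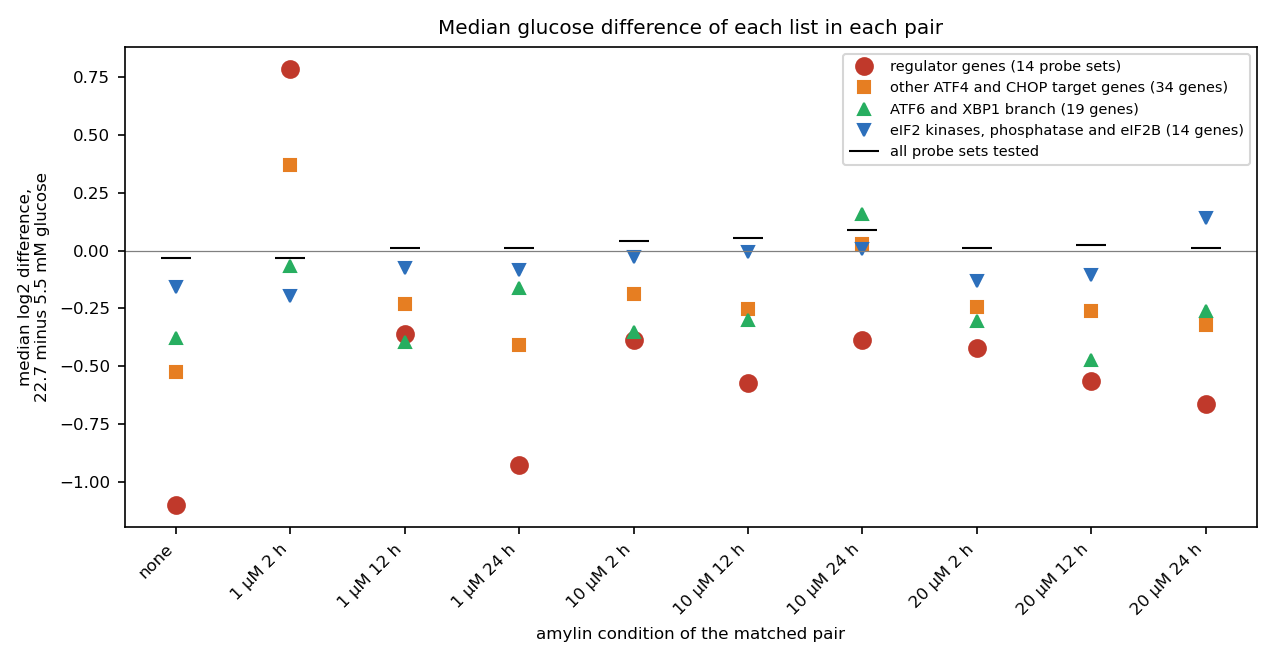
Median log2 difference between 22.7 and 5.5 mM glucose in each of the 10 matched pairs for the regulator genes (red circles) and for 3 lists of other genes, with the median of all 12228 probe sets as black bars. At 1 µM for 2 h the regulator genes (0.79) and the other ATF4 and CHOP targets (0.37) are above 0, and the ATF6 and XBP1 branch (−0.07) and the eIF2 list (−0.20) are not.

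Treated arrays of all doses and times were compared with untreated ones to see the average effect of amylin. No member passed, nor did any other probe set (0.0% called by limma, 657 of 12228 at an unadjusted p under 0.05). All 14 member probe sets were lower with amylin, from −0.55 for Nupr1 1419665_a_at to −0.07 for Atf4 1448135_at, with a median of −0.35 beside −0.04 for all probe sets (limma adjusted p of 0.787 to 0.901). Of all probe sets 59.5% were lower with amylin. Among the members, Cebpb differed by −0.25, and Ddit4 and Ppp1r15a by −0.38 each. The members' values rested on the untreated array at 5.5 mM, which was the highest of all 20 arrays for 8 of the 14 probe sets. Without it 9 of 14 were negative and the median was −0.04, and without the untreated array at 22.7 mM the median was −0.59.

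At 5.5 mM all 9 treated arrays lay below the untreated array for 9 of the 14 probe sets, and at 22.7 mM for 1 of them, Atf4 1438992_x_at. Each count rests on 1 untreated array, and the share of all probe sets with such an order was not taken. On average 62.4% of all probe sets were lower with amylin at 5.5 mM and 49.8% at 22.7 mM. Trib3 1426065_a_at, at 9.39 in untreated cells at 5.5 mM, had 7.44, 7.99 and 9.35 after 2, 12 and 24 h of 1 µM. It had 8.40, 8.34 and 8.59 at 10 µM and 8.14, 8.46 and 7.92 at 20 µM. At 22.7 mM the untreated array had 7.47, and the treated arrays had 8.30, 7.94 and 7.63 at 1 µM, 7.48, 7.52 and 7.41 at 10 µM, and 7.35, 7.53 and 7.31 at 20 µM. Trib3 thus differed from untreated by −1.09 at 5.5 mM and by 0.14 at 22.7 mM. The difference between these effects, 1.23 (SE 0.54), did not pass (limma adjusted p = 1.00), and no member nor any other probe set passed that test (0.0% called, 426 of 12228 at an unadjusted p under 0.05). Ddit3, at 9.79 in untreated cells at 5.5 mM, had 8.54, 8.89 and 9.56 at 1 µM, 8.98, 9.19 and 9.41 at 10 µM, and 9.02, 9.21 and 9.24 at 20 µM, all below it. At 22.7 mM it went from 8.72 to 9.58, 8.52 and 8.63 at 1 µM, to 8.69, 8.59 and 8.32 at 10 µM, and to 8.54, 8.68 and 8.40 at 20 µM. Only the array of 1 µM for 2 h lay above untreated there.

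For time of exposure no member passed. Between 12 and 2 h Cebpb had the largest difference of the members, −0.49 (SE 0.12), where 0 members and 0.0818% of all probe sets passed (limma adjusted p = 0.177 for Cebpb). Between 24 and 2 h Cebpb differed by −0.43 (SE 0.12) and Atf4 1438992_x_at by −0.45 (SE 0.12), both with a limma adjusted p of 0.384. Over all probe sets 0.0164% passed this comparison, and 7 of 14 members were negative, with a median of 0.001. Both Cebpb and Atf4 1438992_x_at were called in only 1 of the fits that left out an array, that without 10 µM for 24 h at 22.7 mM (−0.53 and −0.59, limma adjusted p of 0.0275 and 0.0144). In that fit 222 of 12228 probe sets were called, and 8 of 14 members were negative, with a median of −0.02. There the condition of 10 µM for 24 h rested only on the 5.5 mM array that stood apart. Cebpb at 5.5 mM was 8.70, 8.80 and 8.55 at 2 h of 1, 10 and 20 µM, 7.97, 8.49 and 8.57 at 12 h, and 9.02, 7.71 and 8.05 at 24 h. At 22.7 mM it was 8.79, 8.84 and 8.18 at 2 h, 7.83, 8.01 and 8.07 at 12 h, and 8.44, 8.05 and 8.02 at 24 h. At 22.7 mM every 12 h array lay below every 2 h array, and at 5.5 mM the 2 times overlapped. The lowest 5.5 mM value, 7.71, came from the array of 10 µM for 24 h that stood apart.

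Between glucose levels the time effects of the members went in opposite directions without passing. Between 24 and 2 h all 14 were negative at 22.7 mM (median −0.41) and 12 of 14 were positive at 5.5 mM (median 0.29). Over all probe sets 46.8% were negative at 22.7 mM (median 0.015) and 52.6% at 5.5 mM (median −0.018). The difference was −1.36 (SE 0.54, limma adjusted p = 0.399) for Nupr1 1419665_a_at, −1.04 (SE 0.28, limma adjusted p = 0.393) for Ddit3 and −1.12 (SE 0.38, limma adjusted p = 0.393) for Nupr1 1419666_x_at, with 0 members and 0.0% of all probe sets called (1461 of 12228 at an unadjusted p under 0.05). The median over members went from −0.66 to −0.28 without the pair of 1 µM for 2 h. Nupr1 1419665_a_at shows what this rests on: at 2 h it was at 7.0, 8.65 and 8.62 at 1, 10 and 20 µM at 5.5 mM, and at 8.90, 7.37 and 7.21 at 22.7 mM. At 24 h it was at 9.10, 7.89 and 8.24 at 5.5 mM and at 7.18, 6.58 and 6.60 at 22.7 mM.

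For dose no member passed. Between 20 and 1 µM the members differed by −0.32 to 0.30, with 0 called (0.0% of all probe sets, 272 of 12228 at an unadjusted p under 0.05, limma adjusted p = 0.998). Trib3 1426065_a_at lay at the lower end and Sesn2 1425139_at at the upper end. The dose effect differed between glucose levels by a median of −0.43, again with 0 called (0.0% of all, 500 of 12228 at an unadjusted p under 0.05), and most in Nupr1 1419665_a_at (−1.39, SE 0.54, limma adjusted p = 0.940). Without the pair of 1 µM for 2 h that median was −0.02.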

How the data were processed

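Total RNA was measured on 20 Affymetrix mouse arrays. The deposited table holds log2 values, which the authors made with RMA in affy 1.12.2 under R 2.4.0, per the submitters' processing notes; RMA corrects background, normalizes and summarises probes. Whether all arrays shared a single run was not stated. Scanner descriptions of 18 arrays gave only the scan day and chip type.

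Of 22690 probe sets, the 20380 with exactly 1 gene were used, symbols being updated through gene identifiers, and the 40% with the lowest mean (below 6.71) were left out. The remaining 12228 were fitted with limma 3.58.1 in R 4.3.3 (lmFit, eBayes with trend), with terms for glucose and the 10 amylin conditions (9 residual degrees of freedom), or glucose crossed with treatment, dose and time (8), and Benjamini-Hochberg adjustment at 0.05. The fit was tested on simulated data. All members were named; other genes were named only where they passed, up to 4 per list, or as the 8 most correlated with the members' mean. Alternatives were other filters, centring, quantile normalization, 1 probe set per gene, eBayes settings, array weights, an additive model, scan day as a block, the actin signal as a covariate, and arrays left out. The members and lists were chosen with earlier results of these data known.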

Additional observations from a re-analysis of the deposited data

Results flagged for a closer look

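Among the 32 sets of 10 arrays that share a glucose level (16 probe sets at 2 levels), 11 held a value far from the other 9, meaning that its gap to the nearest, as a share of the whole range, was past the 95% limit of Dixon's test; chance gives about 1 in 20, and the arrays of a level are different amylin conditions. Of these values, 8 came from the pair of 1 µM amylin for 2 h. Its array at 22.7 mM was the highest of that level for Atf4 1448135_at (11.80), Ddit3 (9.58), Cebpb 1427844_a_at (6.61), Atf5 (10.55), Nupr1 1419666_x_at (9.0), Nupr1 1419665_a_at (8.90) and Trib3 1456225_x_at (8.08). Its array at 5.5 mM was the lowest of that level for Nupr1 1419666_x_at (7.40). The remaining 3 came from the arrays that have no scanner description. On that of 5.5 mM with 10 µM for 24 h, Atf4 1438992_x_at was lowest (7.92) and Atf4 1439258_at highest (6.42). On that of 22.7 mM with 1 µM for 12 h, Sesn2 1451599_at was lowest (7.63).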

How the results depend on the processing

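Over 13 alternatives and 20 leave-one-out fits, 13 of the 14 reported member probe sets kept a negative glucose difference, the exception being Sesn2 1451599_at. With no filter, 15 of 16 were negative, and Atf4 1439258_at was at 0.09. The number called lower, 8 of 14 in the reported fit, was 3 with arrays centred on their medians, 4 of 10 with 1 probe set per gene, 5 with robust estimation, 0 with the actin 3′ minus 5′ signal as a covariate, 12 with array weights, 9 without the 2 arrays that have no scanner description, and 0 to 10 with 1 array left out. Probe sets called for glucose numbered 993 of 12228 in the reported fit, 777 with arrays centred on their medians, 408 of 7436 with 1 per gene and 989 with robust estimation. They numbered 1660 without those 2 arrays, 2027 with scan day as a block and 0 with the covariate. With array weights there were 2178, and with 1 array left out 411 to 1524. Sesn2 1451599_at was at 0.0103 with scan day as a block and between −0.13 and 0.035 with 1 array left out. For amylin minus untreated, Atf4 1448135_at was at 0.00417 after quantile normalization. With 1 array left out that difference ranged from −0.68 to 0.22 for Chac1, −0.53 to 0.13 for Nupr1 1419666_x_at, −0.59 to 0.20 for Sesn2 1425139_at, −1.09 to 0.14 for Trib3 1426065_a_at and −0.79 to 0.18 for Trib3 1456225_x_at. The positive values all came from leaving out the untreated array at 5.5 mM. Between 24 and 2 h, 0 to 2 members were called with 1 array left out (2 only without 10 µM for 24 h at 22.7 mM). Array weights called 4 members for the difference of the amylin effect between glucose levels and 2 for that of the time effect, although their estimation stopped before convergence. Over all probe sets, the alternatives called 0 to 8 for 24 minus 2 h (2 reported), 0 to 34 for 12 minus 2 h (10 reported), 0 to 373 for the amylin and 0 to 430 for the time effect between glucose levels (0 reported for both). With 1 array left out the counts were 0 to 222, 0 to 24, 0 and 0 to 52. The causes of these changes were not tested, except that in the glucose comparison a left-out array removes its pair. In the other comparisons its partner stays in the fit and carries the condition alone. Fits of effects between glucose levels could not be had without an untreated array. No paired analysis by replicate number was possible because the labels carry none; the matched condition is already a term of the fit. The alternative without the pair of 1 µM for 2 h was chosen after seeing the data (10 members and 1023 probe sets called for glucose).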
